A study of Mus musculus with 947 samples.

Results

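Brown adipose tissue (BAT) was compared with gonadal (GAT), mesenteric (MAT) and subcutaneous (SCAT) adipose tissue, which are white fat depots, in the mouse aging cohort of a small RNA sequencing atlas. Libraries were chosen by the tissue and age in their labels, at 3 to 21 months. That gave 23 BAT libraries, 9 from females and 14 from males, beside 28 of GAT (12 and 16), 37 of MAT (13 and 24) and 36 of SCAT (10 and 26). BAT therefore held 23 of these 124 fat libraries, out of 768 used from the cohort and 947 in the series. The mice were C57BL/6JN males and virgin females of the control group, perfused before dissection, and BAT was the interscapular pad. A further 7 BAT, 4 GAT, 7 MAT and 6 SCAT libraries from males of 24 and 27 months served as a second set. The labels do not tie the libraries of different depots to a mouse, so all p-values treat libraries as independent and measure the spread between them.

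Brown fat burns fatty acids and glucose to make heat. Its cells are packed with mitochondria and carry uncoupling protein 1 in the inner mitochondrial membrane, which lets protons return without making ATP. Precursors of the classical brown depot share a lineage with skeletal muscle, whereas white fat stores energy as triglyceride. MicroRNAs (miRNAs) are short RNAs that pair with messenger RNAs, mainly through the seed, bases 2 to 8, and lower their translation or stability. The miR-378 precursor sits in the gene of PGC-1beta, a coactivator of mitochondrial genes, and miR-193b and miR-365 are known from brown fat differentiation.

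The results turn on a small set of mature miRNAs. Their RefSeq sequences (GRCm38.p6) follow 5′ to 3′, with the seed in capitals, so that family members can be compared. First come those that were higher in BAT, with the miR-378 relatives together:
miR-378c: aCUGGACUuggagucagaagc
miR-378b: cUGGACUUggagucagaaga
miR-378d: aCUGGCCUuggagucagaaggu
miR-193b-3p: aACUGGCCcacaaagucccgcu
miR-3073a-3p: uUGAUGUCcacugugaccauag
miR-182-5p: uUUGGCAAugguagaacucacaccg
miR-129-5p: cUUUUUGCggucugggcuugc
miR-455-5p: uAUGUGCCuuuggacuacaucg
The second group was lower in BAT, with the miR-196 and miR-130 pairs, which share a seed, side by side:
miR-196a-5p: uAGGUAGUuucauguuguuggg
miR-196b-5p: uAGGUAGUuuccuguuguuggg
miR-130a-3p: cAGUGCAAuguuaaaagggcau
miR-130b-3p: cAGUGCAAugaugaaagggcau
miR-224-5p: uAAGUCACuagugguuccguu
miR-335-5p: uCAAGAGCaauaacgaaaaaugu
miR-181a-5p: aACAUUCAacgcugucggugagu

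On GRCm38 and the GENCODE M21 annotation, miR-378c lay at chr14:46954905-46954925, minus strand, miR-378b at chr11:88352839-88352858, plus strand and miR-378d at chr10:126710355-126710376, minus strand, all outside annotated host genes. miR-193b-3p lay at chr16:13449570-13449591, plus strand, also between genes and next to one of the miR-365 copies. Introns held miR-3073a-3p (Aspg, chr12:112109290-112109311, plus strand) and miR-455-5p (Col27a1, chr4:63256867-63256888, plus strand). Among the lower ones, miR-196b-5p was in an exon of Hoxa9 (chr6:52230129-52230150, minus strand), a copy of miR-196a-5p in an intron of Hoxc5 (chr15:102973365-102973386, plus strand), miR-335-5p in an intron of the imprinted gene Mest (chr6:30741314-30741336, plus strand) and miR-224-5p in an intron of Gabre (chrX:72261085-72261105, minus strand). miR-378a, b, c and d differ by few bases, so reads could be assigned to the wrong relative, and their separate values are less certain than their sum.

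BAT libraries were shallower than white ones. They held 3153010 to 19654474 mapped reads (median 12563198) against medians of 22756575, 22929033 and 24187624 in GAT, MAT and SCAT. Of these, 409434 to 6851210 were miRNA reads. In 10 of the 23 BAT libraries small nucleolar RNA (snoRNA) made up 0.721% to 1.30% of the signal, against 3.98% to 9.50% in the other 13. The same 10 held 2.36% to 7.74% miRNA (the other 13, 11% to 22.6%) and included every library of 3 and 6 months and 6 of the 9 females. Among white libraries only SCAT replicate 16 was under 3%, at 2.12%. Results are therefore also given for the 13 BAT and 100 white libraries at 3% or more. All 23 BAT libraries had a miRNA profile closest to the BAT median among the 16 tissues, whereas 1 library each of GAT, MAT and SCAT was closest to another depot, SCAT replicate 16 being closest to BAT (Spearman's rho 0.743 to both BAT and SCAT). RNA of tissue pieces was measured, so fewer cells of a type and less RNA per cell cannot be told apart.

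BAT held miR-378 at a very high level and differed from white fat in many other miRNAs. Values are per 1000000 miRNA reads of a library, and a difference is on the log2(value + 1) scale. A miRNA was called at an adjusted p under 0.05 in limma and a ratio past 3/2. Of 658 miRNAs tested, 80 were higher in BAT than in GAT (12.2%) and 379 lower (57.6%). Against MAT these were 118 (17.9%) and 306 (46.5%), and against SCAT 74 were higher (11.2%) and 57.4% lower. In all 3 comparisons 62 were higher (9.42%) and 232 lower (35.3%). The 3 comparisons share the BAT libraries. Of the 62 higher ones 14 passed the filter on low values through BAT alone, and of the 232 lower ones 44 through white depots alone. Those had to differ, and their calls are no support. With the plate of the sample annotation as a covariate 62 were higher and 224 lower, and edgeR on recovered reads called 129 higher and 101 lower. Without the libraries under 3% snoRNA 60 were higher (9.12%) and 145 lower (22%), and 50 of the 62 and 130 of the 232 were called again.

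The balance of higher and lower calls depended on the scaling. The 5 miR-378 rows took a median of 35.7% of the miRNA reads in BAT and 3.20%, 2.47% and 2.58% in GAT, MAT and SCAT, and a scaling to all miRNA reads lowers every other miRNA by that share. The median difference of all miRNAs was -0.78, -0.52 and -0.78 against GAT, MAT and SCAT. Scaled to miRNA reads other than miR-378 it was -0.10, 0.15 and -0.06, and 132 were higher and 83 lower in all 3 comparisons, 61.4% higher against 21.1% in the first scaling. Against GAT, MAT and SCAT singly, that scaling gave 172 higher and 200 lower, 237 and 165, and 174 and 194. Median-ratio scaling gave 125 and 118 in all 3 comparisons (51.4% higher), and 163 and 199, 157 and 254, and 167 and 187 singly. The deposited values, per 1000000 mapped reads, gave 39 and 323 (10.8%), and 52 and 403 against MAT. Of all miRNAs, 17.9% were lower than all 3 depots with median-ratio scaling, 12.6% without miR-378 in the scaling and 49.1% with deposited values, and the counts of lists given next are read against these, 35.3% and 22%. Under all 4 scalings 39 of the 62 and 75 of the 232 were called in the same direction. Of these, 37 higher and 61 lower miRNAs were also called without the libraries under 3% snoRNA and by edgeR. These counts include members that passed the filter on low values through BAT or white depots alone, such as miR-107-5p and miR-335-3p. Their calls are no support here either.

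**Figure D1:**
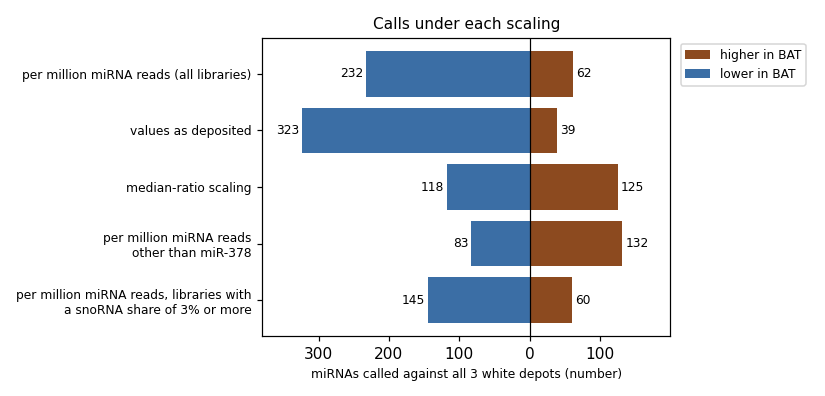
Number of miRNAs called higher (right, brown) or lower (left, blue) in BAT than in all 3 white depots, with 1 row of bars per scaling or set of libraries. The split goes from 39 higher and 323 lower with deposited values to 132 and 83 when miR-378 reads are left out of the scaling.

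miR-378 was the most abundant miRNA family in BAT. Levels of miR-378a-3p were 222061 to 638397 (median 299002) in BAT, 16882 to 165136 (median 27518) in GAT, 10647 to 44516 (median 21752) in MAT and 12608 to 71829.6 (median 22246) in SCAT. Every BAT library lay above every white library, the nearest being GAT replicate 03. Its difference was 3.64 against GAT, 4.12 against MAT and 4.00 against SCAT (SE 0.147 to 0.159, largest adjusted p 1.29e-43), that is 12.4-, 17.4- and 16.0-fold on the log2(value + 1) scale. The level was a median of 562316 in the 10 BAT libraries of low snoRNA and 255544 in the other 13, where the differences were 3.12, 3.62 and 3.5. The passenger strand miR-378a-5p, made from the same hairpin, reached 206 to 544 (median 339) in BAT, 7.36 to 54.8 (median 25.9) in GAT, 6.83 to 50.8 (median 15.2) in MAT and 0 to 71.2 (median 21.1) in SCAT, again with no overlap, and was at 374 in the 10 and 335 in the other 13. The relatives went the same way, with 4.01 against GAT, 4.53 against MAT and 4.31 against SCAT for miR-378c, whose seed is printed above. For miR-378b the differences were 3.93, 4.04 and 4.14 in the same order, and for miR-378d 3.19, 3.90 and 3.5.

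**Figure D2:**
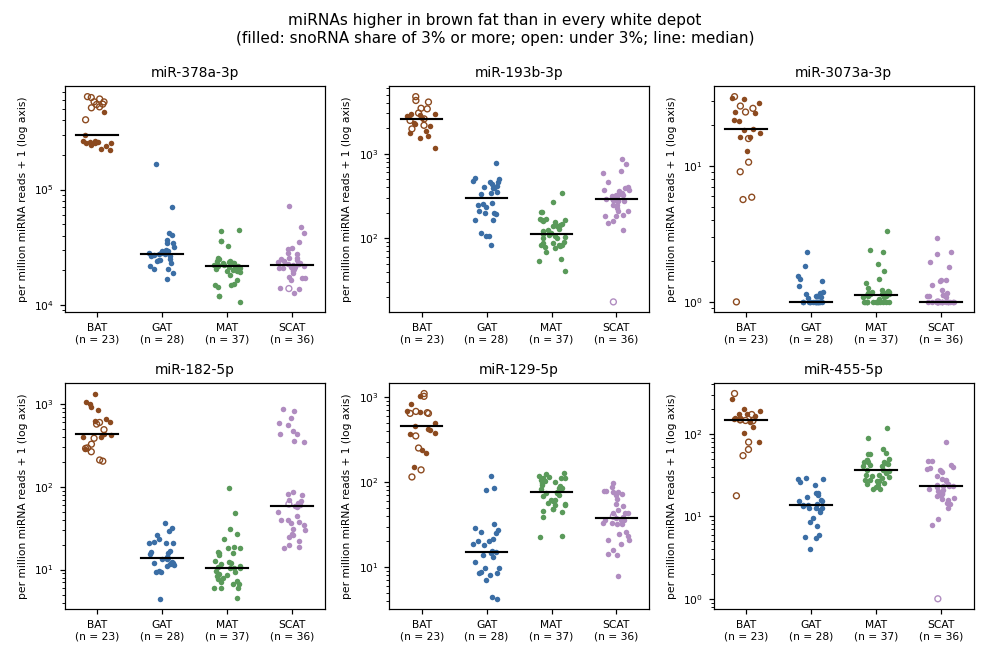
Level of 6 miRNAs per library, per 1000000 miRNA reads plus 1 on a log axis, by depot. Points are libraries, open where the snoRNA share was under 3%, and lines are medians; for miR-378a-3p and miR-193b-3p the lowest BAT library lies above the highest white one.

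The miR-193b and miR-365 cluster promotes brown fat differentiation. Levels of miR-193b-3p were 1168 to 4729.7 (median 2581) in BAT, 82.7 to 767 (median 296) in GAT, 39.5 to 337 (median 110.4) in MAT and 16.6 to 868 (median 288) in SCAT, without overlap between BAT and any white depot. The difference was 3.22 against GAT, 4.45 against MAT and 3.13 against SCAT (SE 0.193 to 0.208, largest adjusted p 5.04e-29), or 9.32-, 21.9- and 8.77-fold, and 3.12, 4.34 and 2.90 without the libraries of low snoRNA. The other strand, miR-193b-5p, differed by 2.69, 3.77 and 2.63. Their neighbour miR-365-3p, which can also come from a copy on chromosome 11, differed by -0.75 against GAT, 0.92 against MAT and -0.07 against SCAT over all libraries, called lower against GAT and higher against MAT. It was at a median of 526 in the 10 BAT libraries of low snoRNA and 7265 in the other 13, where it was called higher against all 3 depots, by 0.93, 2.54 and 1.37.

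Of the 5 tested miRNAs of the miR-183 cluster on chromosome 6, better known from sensory organs and epithelia, miR-182-5p, miR-96-5p and miR-182-3p were higher in BAT than in all 3 depots. miR-182-3p passed the filter through BAT alone. miR-183-5p and miR-183-3p were higher than GAT and MAT and not called against SCAT, and female SCAT was above female BAT in median level for miR-183-5p, at 135 to 444 (median 267) against 23.5 to 278 (median 45.1). Levels of miR-182-5p were 203 to 1334 (median 434) in BAT, 3.44 to 35.5 (median 12.9) in GAT, 3.59 to 94.8 (median 9.51) in MAT and 17 to 865 (median 58.0) in SCAT. BAT was above all of GAT and MAT but overlapped with SCAT, and the difference was 4.96 against GAT, 5.25 against MAT and 2.37 against SCAT (largest adjusted p 1.33e-13). The overlap lay with 1 sex: after the values were seen, SCAT was split by the labelled sex, which gave 349 to 865 (median 512) in 10 females and 17 to 86.1 (median 39) in 26 males. BAT was at 209 to 1334 (median 569.7) in females and 203 to 1043 (median 408) in males. miR-96-5p was at 37.2 to 81.4 (median 55.3) in females and 0 to 14.3 (median 6.25) in males of SCAT, and at 50.3 to 145 (median 89.6) and 21.6 to 97.7 (median 53.7) in BAT.

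miR-129-5p, a miRNA of neurons made from 2 loci, one of them in an intron of Mir670hg, was at 114 to 1105 (median 455) in BAT, 3.23 to 117 (median 14.2) in GAT, 21.4 to 128 (median 76.1) in MAT and 6.77 to 96.2 (median 36.9) in SCAT. Only the lowest BAT library fell within the range of GAT and MAT. The difference was 4.66 against GAT, 2.58 against MAT and 3.55 against SCAT, and the opposite strand of one locus, miR-129-2-3p, was also called in all 3 comparisons. miR-455-5p, from a collagen gene's intron and known to promote brown adipogenesis, was at 16.8 to 308 (median 149) in BAT, 3.05 to 28.1 (median 12.7) in GAT, 20.3 to 117 (median 35.7) in MAT and 0 to 78.6 (median 22.3) in SCAT. Its difference was 3.28 against GAT, 1.78 against MAT and 2.52 against SCAT (SE 0.208 to 0.225), with some overlap. The other strand, miR-455-3p, was called higher against GAT only (1.26, 0.35 and 0.41). It was at a median of 30.9 in the 10 BAT libraries of low snoRNA against 487 in the 13 others, where it was called against all 3 depots, by 3.35, 2.35 and 2.35.

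miR-3073a-3p was low in all depots and highest in BAT. It stood at 0 to 31.3 (median 17.7) in BAT, 0 to 1.32 (median 0) in GAT, 0 to 2.31 (median 0.125) in MAT and 0 to 1.94 (median 0) in SCAT, and all but the lowest BAT library, at 0, were above every white library. The difference was 3.84 against GAT, 3.73 against MAT and 3.74 against SCAT, and 4.43, 4.29 and 4.25 without the libraries of low snoRNA. Both strands, and miR-107-5p, passed the filter on low values through BAT alone, so these values are a description with no test. miR-107-5p, the passenger strand from an intron of Pank1, a gene of coenzyme A synthesis, was at 2.44 to 22.6 (median 13.0) in BAT and no higher than 2.76 in white libraries. It differed by 3.06, 3.14 and 2.97.

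Some of the higher rows need care. The 19 bases of miR-6481 also occur in mt-Tf, the mitochondrial tRNA for phenylalanine, and those of miR-1291 in the small nucleolar RNA Snora34, so these reads cannot be assigned. miR-6481 was at 1.71 to 49 (median 8.05) in BAT and at most 0.815 in any white library, with differences of 3.36, 3.30 and 3.28, and it too passed the filter through BAT alone. miR-1291 differed by 3.23, 3.38 and 3.25. miR-6236, miR-6238, miR-6239 and miR-6240 differed by 2.89 to 4.22 over all libraries and by 1.77 to 3.10 without those of low snoRNA. None of the 4 was called against all 3 depots at 24 and 27 months. For miR-6240 the median was 653 in the 10 BAT libraries of low snoRNA and 64.8 in the 13 others, against 17.9 in GAT. Ribosomal RNA was also higher in BAT, and its part in these rows was not tested.

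In the other direction, the largest differences against GAT and SCAT were those of miR-196a-5p and miR-196b-5p, which are encoded in the Hox gene clusters and mark posterior body regions. Levels of miR-196a-5p were 3.28 to 52 (median 8.74) in BAT, 40.2 to 5421 (median 365) in GAT, 8.25 to 1031 (median 52.5) in MAT and 1959.7 to 10479 (median 3844) in SCAT. BAT lay below all SCAT libraries and overlapped with the lowest of GAT and MAT. The difference was -5.69 against GAT, -2.73 against MAT and -8.62 against SCAT (SE 0.399 to 0.431, largest adjusted p 8.85e-10), which is 51.4-, 6.64- and 394-fold lower. For miR-196b-5p it was -5.77 against GAT, -2.90 against MAT and -7.55 against SCAT. GAT fell in a high and a low set by labelled sex, seen after the values were plotted: miR-196a-5p was at 2143 to 5421 (median 3467) in 12 females and 40.2 to 828 (median 159.5) in 16 males. In BAT it was at 4.08 to 52 (median 11.3) in females and 3.28 to 29.7 (median 7.72) in males, so BAT was below GAT within each sex, and the overlap was between female BAT and male GAT.

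**Figure D3:**
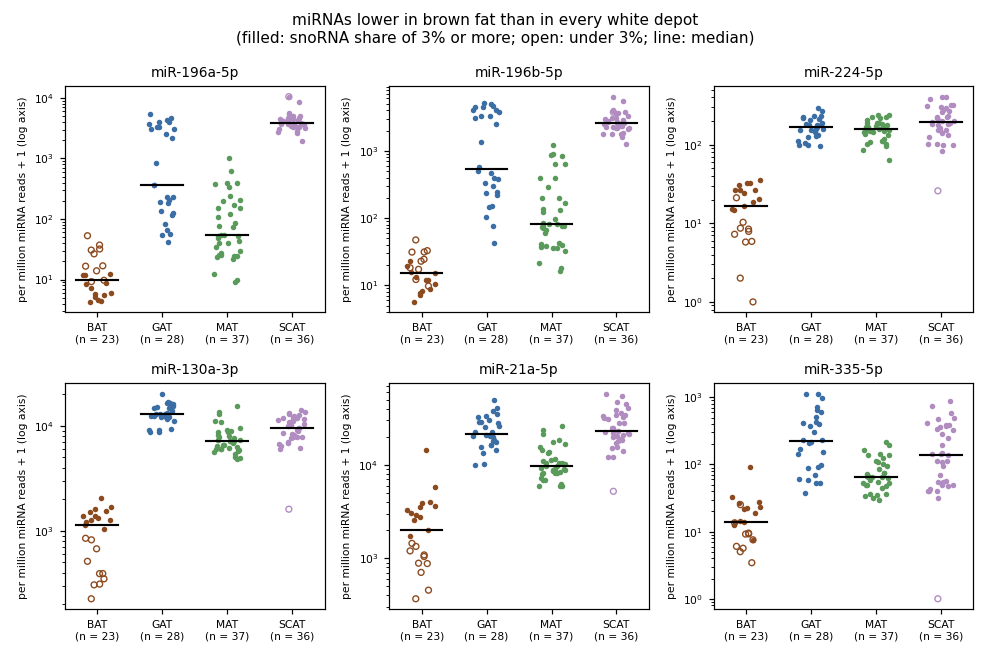
Level of 6 miRNAs per library, per 1000000 miRNA reads plus 1 on a log axis, by depot, with open points for a snoRNA share under 3% and lines at the medians. The 23 BAT libraries of miR-196a-5p lie below all 36 of SCAT, and for miR-224-5p and miR-130a-3p only SCAT replicate 16, the open point, reaches the BAT range.

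miR-224-5p, from an intron of Gabre, was lower in BAT by a similar amount against each depot. It stood at 0 to 34.6 (median 15.5) in BAT, 95.7 to 292 (median 166) in GAT, 63.7 to 241 (median 159) in MAT and 24.9 to 408 (median 195) in SCAT, and differed by -3.75 against GAT, -3.56 against MAT and -3.79 against SCAT (SE 0.197 to 0.213, largest adjusted p 1.27e-33), or 13.5-, 11.8- and 13.9-fold. Without the libraries of low snoRNA the differences were -2.93, -2.75 and -3.08, and BAT, at up to 34.6, and the white depots did not overlap. The others tested of its cluster on the X chromosome, miR-224-3p and miR-452-3p, were also lower, but passed the filter through white depots alone.

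miR-130a-3p, which represses the adipogenic factor PPARG, was at 224 to 2061 (median 1138) in BAT, 8687 to 20275 (median 12907) in GAT, 4848 to 15521 (median 7218) in MAT and 1606 to 14007 (median 9514) in SCAT. It differed by -4.05 against GAT, -3.20 against MAT and -3.43 against SCAT (SE 0.140 to 0.152, largest adjusted p 7.7e-44), 16.6-, 9.18- and 10.8-fold lower, and by -3.37, -2.54 and -2.85 without the libraries of low snoRNA. miR-130b-3p and miR-301a-3p, which share its seed AGUGCAA, were also lower, which is 3 of the 3 tested members of the seed in both sets of libraries and under all 4 scalings, where 35.3% of all miRNAs were lower in the first. Of the 6 tested miRNAs with the seed AAAGUGC, which includes the proliferation-linked miR-17, miR-20 and miR-106, 5 were lower in BAT, and 2 with median-ratio scaling, without miR-378 in the scaling or without the libraries of low snoRNA. miR-20b-5p differed by -2.47, -2.62 and -2.82 and miR-106a-5p by -2.28, -2.30 and -2.65.

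miR-21a-5p, a miRNA raised in fibrosis and inflammation, was at 367 to 14388 (median 1988) in BAT, 10023 to 49509 (median 21622) in GAT, 5971 to 25761 (median 9683) in MAT and 5208 to 57983 (median 22939) in SCAT. 1 BAT library lay within the range of all 3 white depots and another above SCAT replicate 16 alone, and the difference was -3.62 against GAT, -2.46 against MAT and -3.66 against SCAT, or -2.72, -1.59 and -2.86 without the libraries of low snoRNA. miR-335-5p, which rises with white adipogenesis together with its host Mest, was at 2.44 to 91.4 (median 12.7) in BAT, 36.1 to 1136 (median 220.1) in GAT, 29 to 212 (median 64.9) in MAT and 0 to 872 (median 139) in SCAT. SCAT replicate 16 was the library at 0, and among the others the highest BAT library overlapped with all 3 white depots and the next with MAT and SCAT. The difference was -4.12 against GAT, -2.44 against MAT and -3.18 against SCAT. miR-218-5p, from the introns of Slit2 and Slit3, differed by -2.73, -3.17 and -2.31. miR-135a-5p differed by -2.37, -4.16 and -2.57.

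3 miRNAs were lower in every BAT library than in every white one (0.456% of those tested), beside 6 that were higher in every one (0.912%). The lower were miR-181a-5p, miR-181b-5p and miR-125b-1-3p, and the higher miR-193b-3p, miR-378a-3p, miR-378a-5p, miR-378b, miR-378c and miR-6481. Of these miR-6481 passed the filter on low values through BAT alone. With deposited values there were 3 higher and 1 lower, with median-ratio scaling 9 and 2, and without miR-378 in the scaling 13 and 0, so the lower ones depended on the scaling. miR-181a-5p, which tunes lymphocyte signalling, was at 2178 to 5113 (median 3004) in BAT, 5812 to 14928 (median 10054) in GAT, 6194 to 21036 (median 10712) in MAT and 5775 to 12637 (median 9669) in SCAT. It differed by -1.64 against GAT, -1.72 against MAT and -1.58 against SCAT, about the same against each depot. miR-125b-1-3p was at 7.60 to 24.4 (median 13.4) in BAT, 40.8 to 134 (median 86.2) in GAT, 36.7 to 114 (median 59.7) in MAT and 43.6 to 202 (median 74.5) in SCAT, a difference of -2.61, -2.10 and -2.44. Without the libraries of low snoRNA 16 miRNAs were higher and 7 lower without overlap, miR-224-5p and miR-130a-3p among the lower. Some of these, such as miR-107-5p and miR-135b-5p, passed the filter through BAT or white depots alone.

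Known brown fat miRNAs were described as a list. Its members, like those of the lists below, were chosen with earlier results of these data known, so the counts are a description with no test. Of 14, 6 were higher than all 3 white depots (miR-193b-3p, miR-378a-3p, miR-378a-5p, miR-455-5p, miR-182-5p and miR-129-5p) and 1, miR-26a-5p, was lower, against 9.42% and 35.3% of all miRNAs. The list's median difference was 0.66, 0.83 and 0.29, against -0.78, -0.52 and -0.78 for all miRNAs. With deposited values 6 were higher and 5 lower, with median-ratio scaling 8 and 1, and without miR-378 in the scaling 8 and 0. miR-26a-5p differed by -2.04, -1.45 and -1.96, and was not called without the libraries of low snoRNA (-0.97, -0.41 and -0.97) or when miR-378 reads were left out of the scaling. Without the libraries of low snoRNA 9 of the 14 were higher, now with miR-365-3p, miR-455-3p and miR-203-3p, and none lower. miR-32-5p, miR-328-3p, miR-30b-5p and miR-30c-5p were not called against all 3 depots.

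Of 12 miRNAs known to repress brown or beige fat, 0 were higher and 7 lower (median difference -1.58, -1.03 and -1.60), against 35.3% lower of all miRNAs, and 5 were lower without the libraries of low snoRNA, against 22%. miR-222-3p held under all 4 scalings and was at 11.7 to 74.3 (median 24.2) in BAT, 82.6 to 219 (median 139) in GAT, 38.1 to 132 (median 80.4) in MAT and 33.2 to 245 (median 163) in SCAT, a difference of -2.52, -1.71 and -2.55. miR-34a-5p differed by -2.19, -1.27 and -1.55, miR-155-5p by -1.71, -1.21 and -1.97 and miR-125b-5p by -2.11, -1.45 and -1.87, and these were not called when miR-378 reads were left out of the scaling. miR-133a-3p and miR-133b-3p, which repress the brown fat regulator PRDM16, were lower than MAT and SCAT and not called against GAT (-0.08 and 0.13). With miR-378 reads left out 1 of the 12 was lower, with median-ratio scaling 5, and with deposited values 11.

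Of 8 tested Hox cluster miRNAs 7 were lower in BAT (median difference -2.25, -1.36 and -1.52), against 35.3% of all miRNAs, but only 3, miR-196a-5p, miR-196b-5p and miR-615-3p, without the libraries of low snoRNA, against 22%, and miR-196a-5p and miR-196b-5p alone under every scaling. miR-10b-5p differed by -2.50, -0.94 and -1.80 and then by -1.65, -0.12 and -1.11. Of 8 white fat miRNAs 6 were lower, in both sets of libraries, with miR-335-5p and miR-335-3p, of which miR-335-3p passed the filter through white depots alone, among the 4 that held under every scaling. The white fat list shares miR-125b-5p, miR-221-3p and miR-222-3p with the repressors of brown fat and miR-196a-5p with the Hox list, so these counts are not separate. Of 34 tested miRNAs from the imprinted Dlk1-Dio3 locus on chromosome 12, which is tied to growth and to preadipocytes, 20 were lower (median -1.22, -1.73 and -0.80) and none higher, against 35.3% lower of all miRNAs. Among the 20 were miR-494-3p and miR-665-3p, which passed the filter through white depots alone, so their calls are no support. The count of lower ones was 8 of 34 without the libraries of low snoRNA, about the 22% of all miRNAs there. It was 3 with median-ratio scaling, 5 without miR-378 in the scaling and 24 with deposited values, against 17.9%, 12.6% and 49.1% of all miRNAs. miR-411-5p (-2.61, -2.84 and -2.04), miR-379-5p (-2.22, -2.33 and -1.69) and miR-299a-3p were called in all of these.

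Markers of white blood cells, fibroblasts and smooth muscle were lower in BAT, beside 35.3% of all miRNAs (22% without the libraries of low snoRNA). Of 7 white blood cell miRNAs 6 were lower in both sets of libraries, and their summed level was 4569 to 10737 in BAT, 12458 to 30911 in GAT, 10505 to 67686 in MAT and 11932 to 49499 in SCAT. miR-155-5p and miR-150-5p of this list were also among the repressors of brown fat. miR-142a-3p, specific to blood cells, was at 102 to 2031 (median 472) in BAT, 860.4 to 7384 (median 2057) in GAT, 476 to 33694 (median 1831) in MAT and 854 to 18879 (median 3100.2) in SCAT and differed by -2.47, -2.52 and -2.95. Of 5 fibroblast miRNAs 4 were lower, and all 5 without the libraries of low snoRNA, with a summed level of 750.0 to 9307 in BAT, 7008 to 19412 in GAT, 5573 to 13808 in MAT and 3774 to 36304 in SCAT. miR-199a-3p differed by -2.41, -1.90 and -3.35 and miR-214-3p by -2.63, -1.89 and -2.93. All 3 smooth muscle miRNAs were lower in both sets, with miR-143-3p at 9435 to 56477 (median 29591) in BAT, 50813 to 248498 (median 112446) in GAT, 142657 to 569318 (median 412676) in MAT and 44687 to 131398 (median 95754) in SCAT, so BAT overlapped with the lowest of GAT and SCAT and not with MAT. With miR-378 reads left out of the scaling, 3 blood cell, 4 fibroblast and 1 smooth muscle miRNA were still called lower, against 12.6% of all miRNAs. The part of these cell types in the differences of other miRNAs was not tested.

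None of 7 tested muscle miRNAs was called against all 3 depots over all libraries, while 4 were lower than SCAT, and 3 were higher and 4 lower than MAT. Under median-ratio scaling and without miR-378 in the scaling 1, miR-208a-3p, was higher than all 3, and with deposited values 1 was lower. Their summed level was 687 to 20169.8 in BAT, 1148 to 18622 in GAT, 4103 to 17369.8 in MAT and 998 to 121725 in SCAT. miR-1a-3p was at a median of 1196 in BAT and 272352 in limb muscle. miR-208b-3p was at 0 in 11 of 23 BAT libraries. The 2 endothelial miRNAs, both strands of miR-126a, were higher than in MAT (1.06 and 1.52) and miR-126a-5p also higher than in SCAT, with a summed level of 18638 to 90753 in BAT, 24759 to 65658 in GAT, 11147 to 58606 in MAT and 21838 to 80718 in SCAT. Both were called higher than all 3 depots with median-ratio scaling and without miR-378 in the scaling.

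The remaining marker lists were short, and their counts are read beside 35.3% lower and 9.42% higher of all miRNAs. Without the libraries of low snoRNA these shares were 22% and 9.12%. Of 4 red blood cell miRNAs 1 was lower, miR-486a-5p, which passed the filter through white depots alone, and the summed level was 287 to 7200.1 in BAT, 1177 to 9320.0 in GAT, 733 to 6677 in MAT and 1581 to 21591 in SCAT. Of 5 pancreas miRNAs 3 were lower (2 without the libraries of low snoRNA), from 116 to 584 in BAT, 335 to 1499.6 in GAT, 198 to 2070.4 in MAT and 304 to 1985 in SCAT. Of 7 epithelial miRNAs 3 were lower, miR-200a-3p, miR-200b-3p and miR-429-3p, from 527 to 2370.3 in BAT, 860.3 to 3431 in GAT, 381 to 14428 in MAT and 288 to 25795 in SCAT, and miR-203-3p was higher without the libraries of low snoRNA. With median-ratio scaling and without miR-378 in the scaling, 1 epithelial miRNA was higher and 0 lower, 1 pancreas miRNA was lower and 0 of the red blood cell miRNAs. Of all miRNAs, 19.0% and 20.1% were higher and 17.9% and 12.6% lower under these scalings. With deposited values 5 epithelial, 4 pancreas and 3 red blood cell miRNAs were lower, against 49.1% of all miRNAs. Of 7 neuronal miRNAs miR-219a-5p was higher and miR-7a-5p lower over all libraries, miR-138-5p was the lower one without those of low snoRNA, and without miR-378 in the scaling 2 were higher and none lower. Their summed level was 471 to 5225 in BAT, 833 to 3719.8 in GAT, 2343 to 5245 in MAT and 1206 to 3509 in SCAT. No gut and kidney miRNA of 3 was called (707 to 8913 in BAT, 514 to 3733 in GAT, 372 to 25802 in MAT and 535 to 6825 in SCAT), with 1 lower with deposited values, 1 higher with median-ratio scaling and 2 higher without miR-378 in the scaling. Of 8 gonad miRNAs 2 passed the filter, and miR-34c-5p was lower (18.6 to 124 in BAT, 77.4 to 756 in GAT, 29.5 to 182 in MAT and 0 to 322 in SCAT), while miR-202-5p was at 0 in all 23 BAT libraries. The liver miRNA miR-122-5p was lower than GAT only over all libraries, and lower than all 3 depots without those of low snoRNA (5.31 to 896 in BAT, 27.4 to 1745 in GAT, 27.8 to 1177 in MAT and 16.6 to 1184 in SCAT).

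Medians over the 16 tissues of the cohort placed these levels. miR-378a-3p was highest in BAT (299002), then heart (79506) and limb muscle (55494). miR-193b-3p was highest in BAT (2581), then skin (396). miR-3073a-3p in BAT (17.7) was close to liver (15.0), and miR-107-5p (13.0) close to kidney (11.8). miR-182-5p ranked behind pancreas (2248), skin (1294), brain (1193) and small intestine (447), and miR-129-5p behind brain (1163). miR-21a-5p was lower in BAT than in any other tissue (1988). These ranks were not tested.

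**Figure D4:**
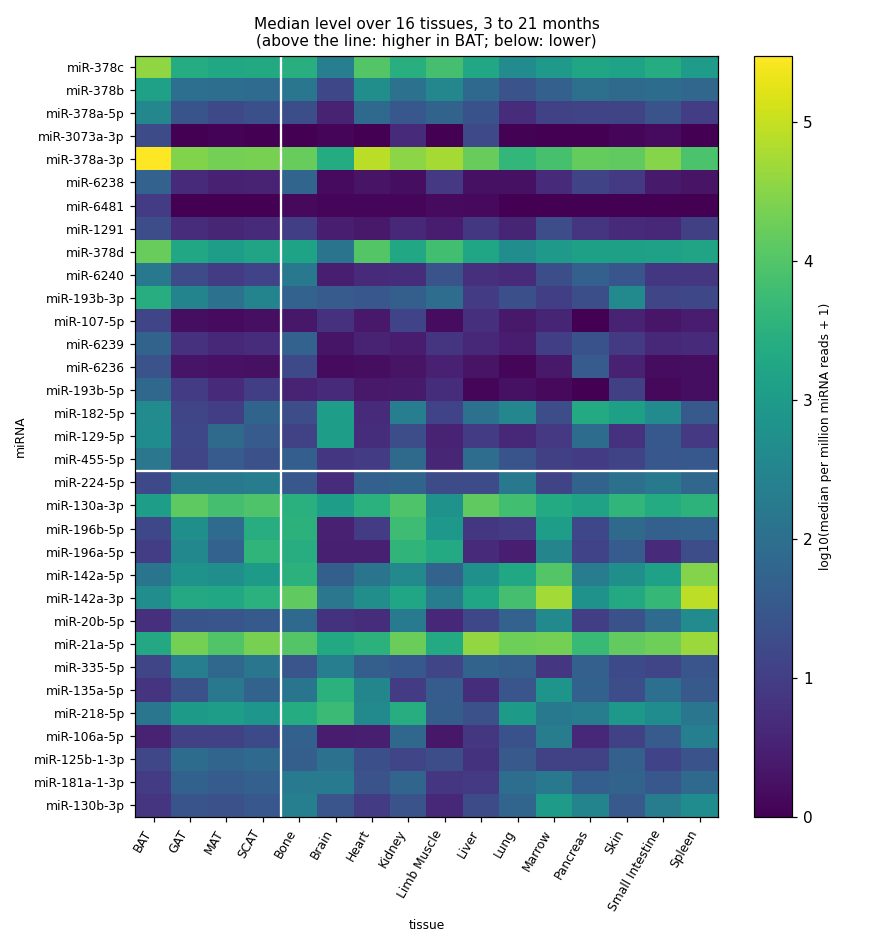
Median level of 33 miRNAs (rows, 18 higher in BAT above the white line and 15 lower below it) in 16 tissues (columns, BAT and the white depots left of the vertical line), as log10 of the median per 1000000 miRNA reads plus 1. miR-378a-3p, miR-378c and miR-193b-3p are brightest in the BAT column.

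The largest differences against a single depot were partly shared. Against GAT they were miR-196b-5p, miR-196a-5p and miR-1247-5p (-4.22, SE 0.280) on the lower side and miR-182-5p, miR-129-5p and miR-378c on the higher side. Against MAT the lower ones were miR-490-3p (-6.53), miR-490-5p (-6.13) and miR-7b-5p (-5.47), none of which was called lower against all 3 depots. Higher than MAT were miR-182-5p, miR-378c and miR-193b-3p. Against SCAT miR-196a-5p, miR-196b-5p and miR-196a-2-3p (-5.33, SE 0.323) were lower, and miR-378c, miR-378b and miR-378a-5p higher. Of these miR-196a-2-3p passed the filter on low values through white depots alone, so its difference is a description with no test.

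Libraries of 24 and 27 months, which the comparison above did not use, were compared in the same way. Of 684 miRNAs tested there, 41 were higher (5.99%) and 137 lower (20%) in BAT than in all 3 depots, and 62 and 57 with median-ratio scaling. The filter was applied anew to these libraries. Members that passed it through BAT or white depots alone were not counted, and their calls are no support. Of the 62 higher ones 60 were tested, 51 went the same way in all 3 comparisons and 32 were called. Of the 232 lower ones 218 went the same way and 116 were called, and none of either set was called in the opposite direction. miR-378a-3p was at 170783 to 650289 (median 248665) in BAT, 21464 to 53550.2 (median 26069) in GAT, 9657 to 23948 (median 19390.1) in MAT and 16585 to 45529 (median 20781) in SCAT, and miR-193b-3p at 1377 to 6540.5 (median 2823) in BAT, 147 to 206 (median 177) in GAT, 84.3 to 315 (median 168) in MAT and 95.4 to 301 (median 183) in SCAT, neither with overlap. Their differences were 3.28, 4.06 and 3.69 and 4.11, 4.29 and 4.06. miR-182-5p, in these males, no longer overlapped with SCAT: 268 to 1296 (median 837) in BAT, 9.22 to 54.7 (median 15.2) in GAT, 8.30 to 57.4 (median 13.6) in MAT and 19.4 to 46.8 (median 27.1) in SCAT. miR-196a-5p was at 2.33 to 23.9 (median 7.96) in BAT, 40.3 to 185 (median 95.6) in GAT, 14.3 to 389.7 (median 52.4) in MAT and 3339 to 5163 (median 4291) in SCAT and differed by -3.09, -2.90 and -8.67, and 11 of the 15 leading higher miRNAs (not miR-6236, miR-6238, miR-6239 and miR-6240) and all 15 lower ones were called again. Of those 11, miR-3073a-3p, miR-107-5p and miR-6481 had passed the first filter on low values through BAT alone. Among the BAT libraries of 24 and 27 months 1 of 7 was under 3% snoRNA. Their miRNA share was a median of 25.1%, against 19.7%, 20.4% and 20.4% in GAT, MAT and SCAT, and ribosomal RNA took 17.3% to 44.6% (median 31.2%).

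Age and sex were compared as differences of differences. The slope per month in BAT minus the mean slope of the white depots was above 0 for 149 miRNAs (22.6%) and below 0 for 34 (5.17%) at an adjusted p under 0.05 in limma. With deposited values these were 178 and 17, with median-ratio scaling 101 and 78, and without miR-378 in the scaling 49 and 128, so the balance turned. miR-455-3p led with 0.27 per month (SE 0.0415, adjusted p 9.99e-07), from 0.23 in BAT and -0.06 to -0.01 in the white depots. The BAT libraries of low snoRNA had a median age of 10.5 months and the others of 15, and without them no miRNA was called in limma (smallest adjusted p 0.881, and 26 at an unadjusted p under 0.05), with a slope of 0.017 for miR-455-3p. In males alone 4 were called, and 82 without BAT replicate 54. Age and snoRNA share moved together in these 23 libraries, and their parts cannot be told apart.

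For sex, the female minus male difference of BAT exceeded that of white fat for 2 miRNAs (0.304%) and fell below it for 11 (1.67%). Median-ratio scaling gave 14 and 12, and scaling without miR-378 gave 11 and 9, and the count went from 6 to 87 in all when single BAT libraries were left out. miR-3065-5p held without the libraries of low snoRNA: in BAT it was at 3.36 to 54.6 (median 22.6) in females and 0 to 53.4 (median 16.9) in males, and in SCAT at 2.45 to 24.0 (median 4.48) and 0 to 35.7 (median 12.2). Of the 9 BAT females 6 were among the 10 libraries of low snoRNA, so sex and snoRNA share moved together. That left 3 females among the 13 other BAT libraries. The sexes overlapped in BAT for miR-3065-5p. The female minus male difference was 0.65 in BAT and -0.92, -0.60 and -1.27 in GAT, MAT and SCAT, and the difference of differences was 1.58 (SE 0.391, adjusted p 0.0102). For miR-31-3p the difference of differences was -1.93 (SE 0.351), from 0.64 in GAT, 0.86 in MAT, 4.23 in SCAT and -0.02 in BAT. It passed the filter on low values through white depots alone, so these values are a description with no test. In BAT females were at 0 to 8.39 (median 1.06) and males at 0 to 7.37 (median 1.16), and in SCAT at 67.6 to 125 (median 108) and 0 to 16.7 (median 4.41).

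RNA classes also set BAT apart at the ages of the main comparison, but the miRNA share did so in the opposite direction in the older libraries. The rRNA and tRNA classes include mitochondrial rRNA and tRNA, which were not separated. Ribosomal RNA fragments made up 20.2% to 64.8% of the summed signal in BAT (median 47.9%), against medians of 24.9% in GAT, 17.8% in MAT and 15.6% in SCAT, with some overlap. The mean difference was 21.2, 26.9 and 27.8 percentage points (adjusted p 1.71e-05 each, permutation test of 100000 shuffles, where 1e-05 is the smallest p before adjustment). miRNA was lower, at a median of 11.5% against 19.5%, 26% and 20.02%, and so were tRNA (9.29% against 16.9%, 21.4% and 30.2%) and snoRNA (4.47% against 13.2%, 10.7% and 11.5%). The class named long noncoding RNA (lncRNA) was higher, at 15.5% against 9.13%, 7.74% and 9.63%. It holds every annotated transcript type not placed in another class. The shares of a library add up to a whole, so a larger rRNA share lowers the others. The summed signal of most libraries also exceeded their mapped reads. In the deposited values, which are set against mapped reads, the summed miRNA signal had a median of 278152 in BAT. It was 363095, 450073 and 344275 in GAT, MAT and SCAT, so BAT was lower there too, by a smaller ratio against each depot. In all, 19 of 24 pairs of a class and a depot passed an adjusted p under 0.05. Without the libraries of low snoRNA the rRNA differences were 21.7, 27.4 and 29.3 points, snoRNA was still lower by medians of 6.00% against 13.2%, 10.7% and 11.6%, and scaRNA, not different before (adjusted p 0.585, 0.759 and 0.935), was higher (adjusted p 0.000223 or less). The scaRNA share was 0.0152% to 0.0286% in the 10 BAT libraries left out and 0.0981% to 0.239% in the 13 kept. Leaving out those 10 raises the scaRNA and snoRNA means of BAT by itself, so the scaRNA call is no support. Small nuclear RNA differed only from MAT (adjusted p 0.0495), and not without the libraries of low snoRNA (adjusted p 0.152).

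**Figure D5:**
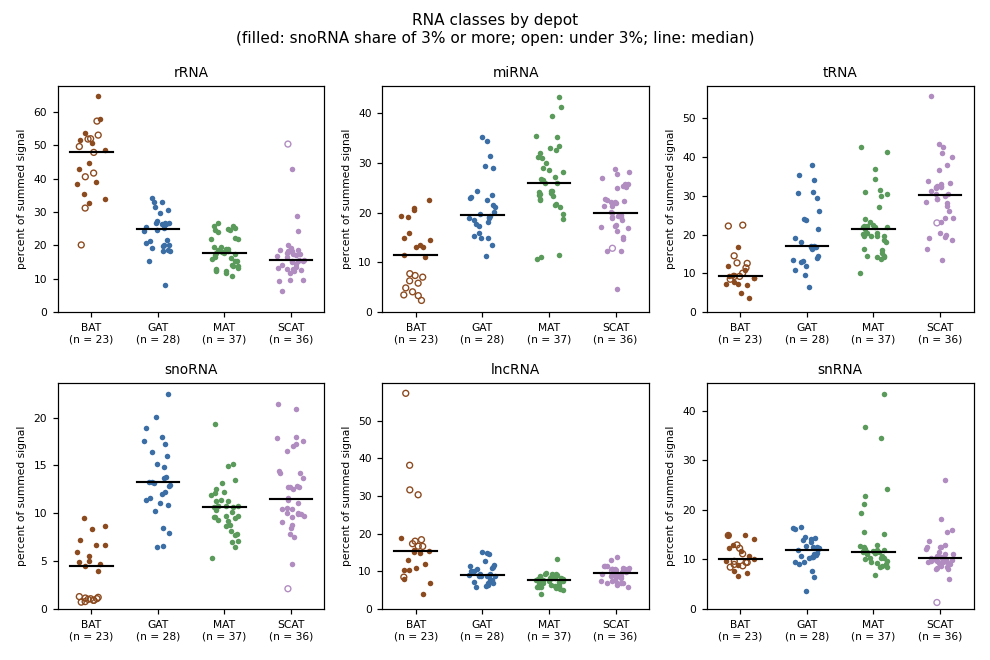
Percent of the summed signal taken by 6 RNA classes in each library, by depot, with open points for a snoRNA share under 3% and lines at the medians. At the ages of the main comparison, BAT has the highest medians for rRNA (47.9%) and lncRNA (15.5%) and the lowest for miRNA, tRNA and snoRNA.

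Among 4082 RNAs other than miRNAs, in reads per 1000000 mapped reads (rpmm), 2125 were higher in BAT than in all 3 depots (52.1%) and 269 lower (6.59%). Scaled within each class these were 1356 and 370, and without the libraries of low snoRNA 1384 and 147. RNAs that passed the filter on low values through BAT or white depots alone were not counted here, and their calls are no support. Of 216 rRNA rows 174 were higher, and of 827 snoRNAs 229 were higher and 189 lower. Scaled within their class, 37 rRNA rows were higher and 2 lower, and 429 snoRNAs were higher and 106 lower. Without the libraries of low snoRNA 174 rRNA rows were higher and 0 lower, and 191 snoRNAs were higher and 78 lower. The libraries left out were picked by their snoRNA share, so the change in the snoRNA counts is no result. The clearest were 2 RNAs of unknown function in the lncRNA class. Gm44257 (chr7:3378121-3390080) was at 15.5 to 147 (median 64.1) in BAT, 0.215 to 7.08 (median 2.08) in GAT, 0.255 to 3.45 (median 1.18) in MAT and 0 to 6.27 (median 1.88) in SCAT rpmm, with the same values for 2 transcripts. No white library reached the lowest BAT library, and the difference was 4.14 against GAT, 4.68 against MAT and 4.23 against SCAT (largest adjusted p 1.68e-42), or 4.24, 4.80 and 4.30 without the libraries of low snoRNA. 4930470O06Rik (chr8:59825649-59844723) was at 11.2 to 78.7 (median 32.6) in BAT, 0 to 2.32 (median 0.523) in GAT, 0.280 to 2.07 (median 0.852) in MAT and 0.179 to 2.52 (median 0.492) in SCAT rpmm, again without overlap, and differed by 4.12 against GAT, 3.95 against MAT and 4.13 against SCAT.

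Other leading RNAs moved with the libraries of low snoRNA. tRNA-Lys-CTT-9-1 was higher by 3.99 against GAT, 3.65 against MAT and 4.44 against SCAT and tRNA-Lys-CTT-7-1 by 3.65 against GAT, 3.61 against MAT and 3.86 against SCAT, and by 1.5, 1.22 and 2.02 and 1.38, 1.39 and 1.67 without those libraries. The 5 leading lower RNAs were all snoRNAs, which guide chemical changes of other RNAs. Snord123 was at 7.27 to 329 (median 79.9) in BAT, 100.02 to 1905 (median 910.0) in GAT, 203 to 1359 (median 767) in MAT and 4.72 to 1428 (median 676) in SCAT rpmm. It differed by -3.89 against GAT, -3.58 against MAT and -3.36 against SCAT over all libraries, and by -2.28, -2.04 and -2.06 without those of low snoRNA. Gm26224, Gm26247 and Gm22357 were still called then, with differences of -1.02 to -1.91. Snord67 was not (-0.78, -0.57 and -0.84). It was at 6.60 to 17.1 rpmm in the 10 BAT libraries left out and 402 to 1247 in the 13 kept. Those 10 were picked by their low snoRNA share, so smaller snoRNA differences without them follow from the choice and are no result.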

How the data were processed

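Small RNA of 16 tissues was sequenced in the aging cohort. The authors mapped the reads with Bowtie in the miRMaster pipeline to miRNA, tRNA, piRNA and other noncoding RNA references, and the labels name the build mm10. The table they deposited holds the signal of each RNA in reads per 1000000 mapped reads (rpmm). Libraries with few aligned reads and RNAs of low level were left out by the authors, and of identical paralogs the first was kept. The summed signal of most libraries exceeds 1000000. Of 771 columns 3, none of them fat, matched no label and were not used.

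From the deposited signal, miRNA values were rescaled to 1000000 over the miRNA rows of a library. RNAs with at least 1 rpmm in 10% of the libraries of at least 1 depot were kept. limma (3.58.1, R 4.3.3; eBayes with trend) was fitted to log2(value + 1), with a pseudocount of 1, depot, age as a factor and sex, on all 4 depots, with Benjamini-Hochberg adjustment over all RNAs of a comparison. The pseudocount understates changes of low RNAs. Whole reads were recovered from the steps of the values (99.0% of miRNA values and 100% of other values up to 1000 reads whole within 0.05 reads) and gave the depths and a test in edgeR 4.0.16. Class shares were compared by two-sided permutation of 100000 shuffles. The fits were tested on simulated data. Classes came from GENCODE M21, where 51 of 7883 RNAs had none, and sequences from RefSeq, which held 540 of the 658 tested miRNAs. Precision is limited by reads: 1 read is 2.44 per 1000000 miRNA reads in the shallowest BAT library.

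Named miRNAs were the 15 higher and 15 lower ones with the largest smallest difference over the 3 comparisons, at a mean of 10 or more per 1000000 miRNA reads in BAT (higher) or in each white depot (lower). Added were the members of the lists, the 3 largest per depot and direction, and the 3 largest age and sex differences per direction. Of the other RNAs 5 per direction were named. The sex splits of miR-182-5p, miR-96-5p and miR-196a-5p, and the threshold of 3% snoRNA, were chosen after values were seen. Members and lists were chosen with earlier results of these data known. Plate, title numbers, sex, filters, pseudocounts and scalings were varied as alternatives. The title numbers do not name a mouse: 43 of 53 held libraries that differed in age or sex.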

Additional observations from a re-analysis of the deposited data

Results flagged for a closer look

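With 48 groups of 4 to 10 libraries looked at over 12 miRNAs, all of them at 24 and 27 months, 5 held a library far from the others, where chance gives about 1 in 20. miR-455-5p in BAT was highest in replicate 19 (27 months) at 602.4 per 1000000 miRNA reads, against a median of 165.4 over 7 libraries. In white fat, miR-378a-3p was highest in GAT replicate 04 at 53550.2 and in SCAT replicate 01 at 45529, both of 24 months. miR-3073a-3p was highest in MAT replicate 53 at 0.392, and miR-21a-5p highest in GAT replicate 52 at 34909.9, both of 27 months.

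BAT and white fat also differed in slope with age by limma's test of the difference. The slope in BAT minus the mean white slope was 0.27 log2 units per month for miR-455-3p, 0.17 for miR-1941-3p and 0.17 for miR-322-5p. It was -0.18 for miR-122-3p, -0.16 for miR-122-5p and -0.15 for miR-3473a. None of the 6 passed without the libraries under 3% snoRNA.

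The female minus male difference in BAT minus that of white fat was 1.58 for miR-3065-5p and 0.91 for miR-219a-1-3p. It was -2.26 for miR-455-3p, -1.93 for miR-31-3p and -1.67 for miR-183-5p. miR-3065-5p passed without the libraries of low snoRNA (adjusted p 0.0308 in limma), where 3 of 13 BAT libraries were from females. miR-31-3p was also called then. It passed the filter on low values through white depots alone, so that call is no support. The other 3 did not pass, and miR-219a-1-3p had passed the filter through BAT alone.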

How the results depend on the processing

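Counts of calls within 1.5 times of the first count are not repeated. A pseudocount of 10 gave 291, 258 and 272 calls against GAT, MAT and SCAT (459, 424 and 452 before), 171 against every depot (294) and 1176 other RNAs (2394). A mean of at least 10 gave 296, 256, 288, 195 and 1122, fewer RNAs being tested, and 6 for sex. A ratio past 2 gave 177 against every depot. Without overlap were 4 miRNAs with deposited values and 23 without the libraries under 3% snoRNA (9 before). Those libraries left out, an alternative chosen after seeing the data, gave 0 slope calls (183), 5 for sex (13) and 1531 other RNAs. Males alone gave 4 slope calls. Sex calls were 1 with deposited values, 26 with median-ratio scaling, 20 without miR-378 in the scaling and 53 without libraries closest to another tissue. Deposited values gave 118 calls at 24 and 27 months (178).

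Leaving out each BAT library gave 449 to 466, 413 to 432 and 442 to 458 calls against GAT, MAT and SCAT, 282 to 308 against every depot, 162 to 202 at 24 and 27 months, 9 to 12 without overlap, 18 to 19 class shares, 2324 to 2457 other RNAs, 82 to 218 slopes (82 without replicate 54) and 6 to 87 for sex. The sex count moved most without BAT replicates 46 (87), 18 (82), 02 (74), 03 (72), 17 (59), 13 (58), 32 (6), 12 (7) and 09, 22, 35, 38 and 54 (8 each). With the title number as a replicate block, 294 miRNAs were called against every depot; the median correlation of deviations was 0.032 over 100 pairs sharing a number and -0.0071 over 5599 others, and the block changed no count by 1.5 times.

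The following differences from the mean of the white depots (log2) changed sign, and the cause was not tested. miR-365-3p was -0.70 with deposited values, -0.071 with the title set as a covariate and -0.068 to 0.169 without single BAT libraries (0.169 without replicate 54). miR-203-3p was -0.41 with deposited values. Without miR-378 in the scaling, with median-ratio scaling, without low snoRNA and in edgeR, miR-328-3p was 0.71, 0.48, 0.15 and 0.53, miR-30b-5p 0.52, 0.29, 0.34 and 0.40, and miR-30c-5p 0.78, 0.55, 0.63 and 0.68 (0.11 in males). miR-100-5p was 0.28 and 0.054 in the first 2, and miR-32-5p 0.42 and 0.20 in the last 2. Slopes of miR-122-3p and miR-122-5p were 0.055 and 0.037 in males, and the sex difference of miR-219a-1-3p -0.074 without low snoRNA. Depth limits rare miRNAs, most in the 10 BAT libraries with 409434 to 1695182 miRNA reads.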
